A study of Rattus norvegicus with 4 samples.

Results

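The potassium channel genes of the rat were taken as all probe sets of the array whose annotation gives exactly 1 gene symbol, with that symbol starting with Kcn. They numbered 82 probe sets for 54 genes, out of 4736 genes named on the array. All 54 gene identifiers matched a RefSeq gene of the same symbol. RNA came from myometrium, the muscle layer of the uterus, in rats 60 days old whose ovaries had been removed a week before. The 4 groups were estradiol benzoate at 10 µg per kg, given under the skin, or vehicle, with the uterine horns taken 6 or 24 h later. Each group was 1 array carrying RNA pooled from 6 animals, and all groups, controls included, lacked ovaries. The labels name no strain. With 1 array per group a difference between groups compares 2 pools and has no replicate error.

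Potassium channels let potassium leave the cell, which draws the membrane potential down and away from the threshold at which calcium channels open. In uterine smooth muscle their opening quiets the tissue and their closing favours contraction, and the balance shifts through pregnancy and labour. The genes encode pore-forming subunits, which are opened by voltage, calcium, nucleotides or background conductance, and auxiliary subunits that tune or traffic them. Fewer cells of a type and less RNA per cell cannot be told apart in such bulk samples.

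The signals are MAS5 intensities, which the authors had scaled to a trimmed mean of 500 on each array. A floor was set at the 40th percentile of each array, 89.5 to 108 signal units, and a signal at or under it was raised to it before log2. For each gene the probe set of highest mean signal was used, and it counted as higher or lower where the log2 difference reached 1, that is 2-fold, with the brighter array above its floor. Folds against an array at its floor are lower limits and carry the words at least. Signals of different genes come from different probes and are not compared with each other. Of 7 smooth muscle markers on the array, all 7 were above the floor on all 4 arrays. The estrogen-induced uterine genes Igf1, Pgr, S100g and Hsd11b2 were higher on the estradiol array at 24 h but lower on the array labelled estradiol at 6 h. For Igf1 the signals were 5182 with estradiol and 665 in its control at 24 h, against 704 with the estradiol label and 7872 with the control label at 6 h. Since these genes oppose the 6 h labels, every direction at 6 h is that of the arrays as labelled. The scan day differed between 6 and 24 h, so its effect and that of time cannot be told apart. The control array at 24 h has an error in its wash record, and its part in the results was not tested. Spiked-in bacterial transcripts had geometric mean signals between 1387 and 4280 over 9 probe sets, lower on both arrays at 6 h.

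Potassium channel transcripts were mostly dim. Of the 54 genes, 30 were above the floor on at least 1 array, 16 of them on all 4, and 24 were at the floor on every array. Of the 82 probe sets 37 were above a floor somewhere. Over all genes, 3619 of 4736 were above the floor on at least 1 array. The genes above the floor on all 4 arrays were Kcnc4 and Kcnd3 among the voltage-gated pores, Kcnh2, Kcnh3, Kcnh4, Kcnh7 and Kcnh8, the inward rectifiers Kcnj1 and Kcnj8, the background channels Kcnk1 and Kcnk5, the calcium-activated channel genes Kcnmb1 and Kcnn1, Kcnq3, and Kcnab2 and Kcng1. Among these 16, the highest signal over the lowest on the 4 arrays ran from 1.15 for Kcnh7 to 4.14 for Kcnd3 with a median of 1.59, and it was under 2 for 13 genes. The same median over the 2652 genes above the floor on all arrays was 1.80. Values beside the floor show how narrow the border was: Kcna1 at 94.0 lay just over the floor of 89.5 on the estradiol array at 24 h, and Kcnh6 at 102 just under that of 108 on the array labelled control at 6 h.

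**Figure D1:**
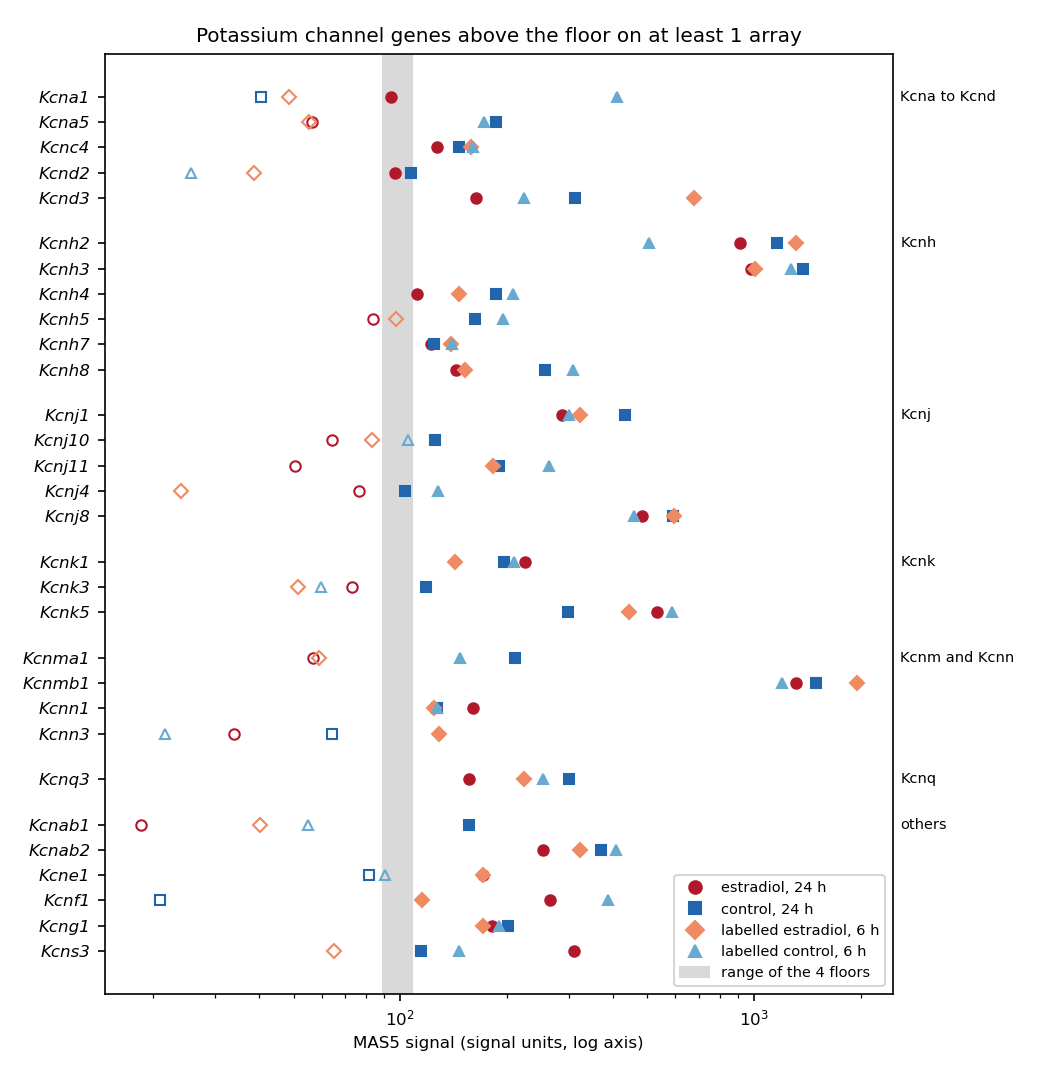
Signal of the 30 potassium channel genes above the floor on at least 1 array, in signal units on a log axis, by subfamily, with 1 point for each of the 4 arrays; open symbols lie at or under the floor of their array and the grey band spans the 4 floors, 89.5 to 108. Kcnmb1, Kcnh2 and Kcnh3 stand well to the right of the band on every array, while Kcna5 and Kcnma1 cross it between the arrays.

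At 24 h after estradiol, 2 potassium channel genes were higher and 3 lower by the 2-fold rule. Higher were Kcns3 and Kcnf1, which encode modifier subunits that form no current of their own and change the gating of Kv2 channels. Lower were Kcnma1, the pore of the large-conductance calcium-activated BK channel, Kcna5, a delayed rectifier, and Kcnj11, the Kir6.2 pore of the ATP-sensitive channel. These are 6.67% and 10.0% of the 30 genes above the floor, against 8.68% higher and 8.04% lower among all 3619 genes, so neither share stands far from the background. By direction alone, with the genes past 2-fold included, more were lower than higher. Of 29 genes with a signal above the floor at 24 h, 23 were lower and 6 higher, 79.3% lower against 59.8% of all genes. The 23 include Kcna1, which was above the floor only with estradiol and takes its small negative value from the unequal floors. Kcna5, Kcnab1, Kcnh5, Kcnj4, Kcnj10, Kcnj11, Kcnk3 and Kcnma1 are also among the 23 and were above the floor only in the control. Being counted thus fixed their direction as lower, also by their own signals. Kcne1 and Kcnf1, among the 6, were above it only with estradiol. All genes passed the same filter. By the genes' own signals, without the floor, 22 of 29 were lower, 75.9% against 58.7%. Scaled to a common median the lower share was 72.4%, and with quantile normalization 69.0%, against 52.2% and 55.8% of all genes. With a floor at the 20th percentile it was 59.6% of 47 genes, against 60.2% of all genes. The median log2 difference over the 30 genes was -0.32, against -0.17 over all genes, where -0.17 is also the log2 ratio of the 2 floors. Scaling to a common median moved the median of all genes at 24 h to -0.03.

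Kcns3 (gene identifier 83588) read 310.2 with estradiol and 114 in its control at 24 h, 65.1 on the array labelled estradiol and 147 on that labelled control at 6 h. Estradiol at 24 h was highest of the 4 arrays, and the array labelled estradiol at 6 h was the only one at the floor. The difference was 2.71-fold at 24 h, a log2 value of 1.44, and it was 1.08 with the array labelled control at 6 h in the control's place. Kcnf1 (298908) read 265 with estradiol and 21.0 in its control at 24 h, 115 with the estradiol label and 386 with the control label at 6 h. The estradiol array at 24 h and the array labelled control at 6 h were high, and the control at 24 h was far under its floor. Kcnf1 was thus at least 2.63-fold higher with estradiol at 24 h and 3.35-fold lower with the estradiol label at 6 h. With the array labelled control at 6 h as the control, estradiol at 24 h turned to -0.54 on the log2 scale. Kcns3 and Kcnf1 each rest on 1 probe set, and that of Kcns3 is of a kind (_s_at) that can match several transcripts.

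Kcnma1 (83731) read 56.7 with estradiol and 211 in its control at 24 h, 59.0 with the estradiol label and 148 with the control label at 6 h. Both arrays labelled estradiol were under the floor and both labelled control above it. The bound was at least 2.36-fold lower at 24 h and at least 1.44-fold lower at 6 h. Its other 3 probe sets read between 7.05 and 43.7 on all arrays, under every floor, so the value rests on 1 of 4 probe sets, also of that kind, and without _s_at and _x_at probe sets Kcnma1 was at the floor on both arrays at 24 h. Kcna5 (25470), with 1 probe set, showed the same order: 56.2 and 186 at 24 h, 55.3 and 172 at 6 h, estradiol before control. It was at least 2.08-fold lower at 24 h and at least 1.68-fold lower at 6 h. Kcnj11 (83535) read 50.6 with estradiol and 189.9 in its control at 24 h, 183 with the estradiol label and 263 with the control label at 6 h. It was at least 2.12-fold lower at 24 h and 1.44-fold lower at 6 h, and its second probe set was under the floor on all arrays. Kcna5 and Kcnj11 were under 2-fold with a common median, at -0.92 and -0.94 on the log2 scale.

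The promoter windows of the genes past 2-fold at 24 h are shown for reading beside these values. They span 250 bases before to 50 after the RefSeq start, in build GRCr8, with GGGCGG, the Sp1 motif, in capitals on either strand. Kcns3 has a pair of starts in the table, and Kcnj11 was not matched in it.
Kcns3, chr6:39584056-39584355, minus strand: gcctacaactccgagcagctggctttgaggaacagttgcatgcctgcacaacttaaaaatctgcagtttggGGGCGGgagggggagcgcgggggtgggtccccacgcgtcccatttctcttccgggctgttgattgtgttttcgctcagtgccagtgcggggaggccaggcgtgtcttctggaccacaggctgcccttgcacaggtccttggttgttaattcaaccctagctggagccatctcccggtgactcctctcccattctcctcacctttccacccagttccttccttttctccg
Kcns3, chr6:39583345-39583644, minus strand: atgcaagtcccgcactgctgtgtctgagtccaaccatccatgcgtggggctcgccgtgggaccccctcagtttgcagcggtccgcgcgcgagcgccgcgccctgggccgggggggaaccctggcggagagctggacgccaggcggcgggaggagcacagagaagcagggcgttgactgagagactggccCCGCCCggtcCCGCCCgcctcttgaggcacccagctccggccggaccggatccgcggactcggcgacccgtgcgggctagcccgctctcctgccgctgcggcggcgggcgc
Kcnf1, chr6:45693657-45693956, minus strand: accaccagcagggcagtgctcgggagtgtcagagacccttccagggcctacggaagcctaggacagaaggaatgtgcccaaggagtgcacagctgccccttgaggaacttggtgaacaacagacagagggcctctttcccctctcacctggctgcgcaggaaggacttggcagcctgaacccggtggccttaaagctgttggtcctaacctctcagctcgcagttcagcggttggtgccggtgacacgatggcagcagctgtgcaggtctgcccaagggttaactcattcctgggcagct
Kcna5, chr4:161043760-161044059, minus strand: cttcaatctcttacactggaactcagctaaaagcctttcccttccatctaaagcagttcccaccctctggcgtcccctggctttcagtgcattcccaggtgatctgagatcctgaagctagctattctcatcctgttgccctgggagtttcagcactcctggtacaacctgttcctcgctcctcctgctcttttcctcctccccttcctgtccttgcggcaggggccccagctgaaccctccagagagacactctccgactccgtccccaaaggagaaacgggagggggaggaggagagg
Kcnma1, chr15:351675-351974, plus strand: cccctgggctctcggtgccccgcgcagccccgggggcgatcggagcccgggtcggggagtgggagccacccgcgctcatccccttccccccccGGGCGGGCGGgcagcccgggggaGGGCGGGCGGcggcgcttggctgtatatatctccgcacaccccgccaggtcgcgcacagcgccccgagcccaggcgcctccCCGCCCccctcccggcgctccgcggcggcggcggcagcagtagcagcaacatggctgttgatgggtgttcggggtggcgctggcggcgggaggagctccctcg

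GGGCGG occurred in the Kcnma1 window 5 times, counting overlaps, in the Kcns3 windows once and 2 times, and not in those of Kcnf1 and Kcna5. Over the 44 windows of the 40 potassium channel genes in the RefSeq table, 22 held it, 50% against 33.1% of all 33469 windows. These windows were also richer in G and C, with a median of 62.0% against 51.7%. The full palindromic estrogen response element was found in 0 of the 44 and in 0.0269% of all windows. Its arm GGTCA, which the full element contains, was in 15 of 44, 34.1% against 40.5%. The AP-1 motif TGANTCA was in 3, 6.82% against 7.33%. A match describes these letters and is not a binding site.

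**Figure D2:**
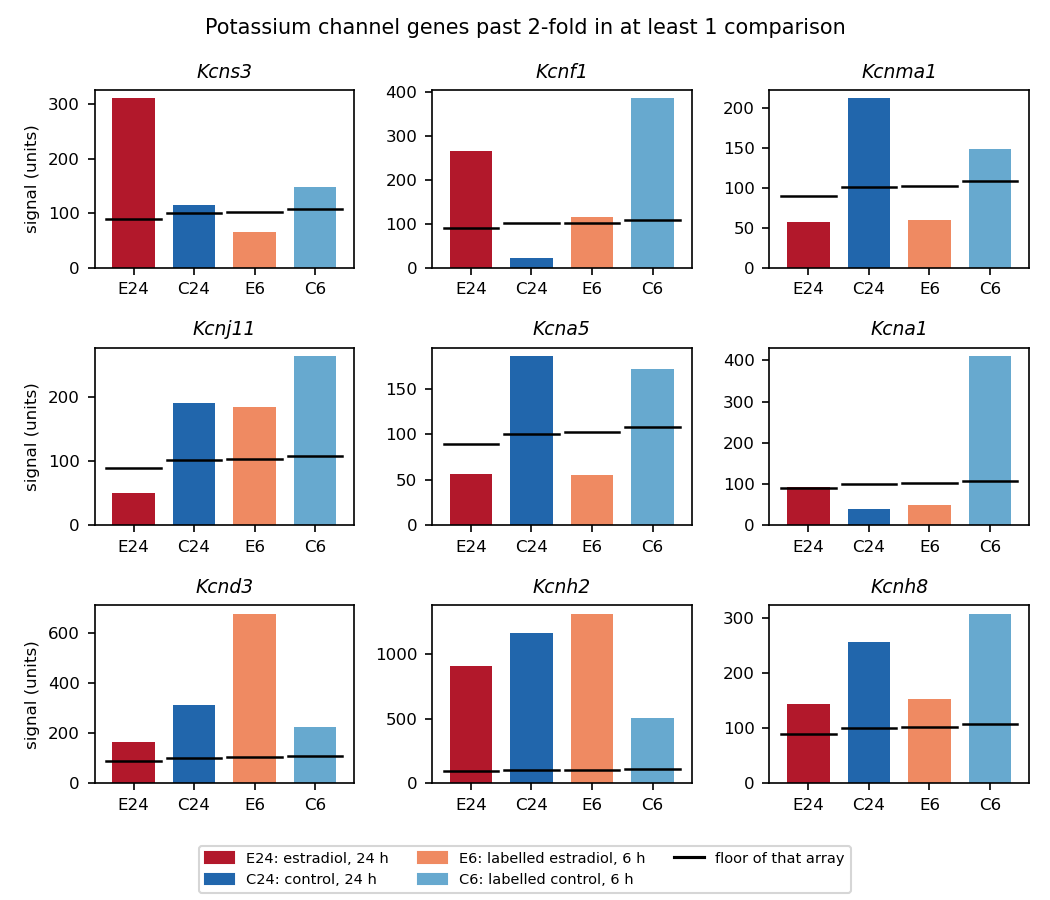
Signal in signal units of the 9 potassium channel genes past 2-fold in at least 1 comparison, with 1 bar per array (1 pool each, so no error bar) and the floor of each array as a black line. Kcnma1 and Kcna5 are above the floor on both arrays labelled control and under it on both labelled estradiol, while Kcnf1 is high with estradiol at 24 h and with the control label at 6 h.

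At 6 h, 2 genes were higher and 3 lower on the array labelled estradiol than on that labelled control. Kcnd3, the Kv4.3 pore of the fast transient A-type current, and Kcnh2, the ERG channel that shapes repolarisation, were higher. Kcna1, the Kv1.1 delayed rectifier, Kcnf1 and Kcnh8, of the ELK branch of the Kcnh family, were lower. The shares were 6.67% higher against a background of 6.47%, and 10.0% lower against 5.08%. Of 26 genes with a signal above the floor at 6 h, 19 were lower and 7 higher as labelled, 73.1% lower against 50.6% of all genes. Kcna1, Kcna5, Kcnh5, Kcnj4, Kcnma1 and Kcns3 were above it only with the control label, so being counted fixed their direction as lower. Kcne1 and Kcnn3 were above it only with the estradiol label. With the 6 h labels turned, 7 of 26 were lower, 26.9% against 49.4%. As labelled and with a common median the lower share was 65.4%, against 49.4% of all genes. With quantile normalization it was 69.2%, against 51.9%, and with a floor at the 20th percentile 72.7% of 44 genes, against 53.4%. With a floor at the 60th percentile 6 of 12 were lower, 50% against 47.5% of all genes.

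Kcnd3 (65195) read 677 with the estradiol label and 224 with the control label at 6 h, 164 with estradiol and 311 in its control at 24 h. The array labelled estradiol at 6 h stood alone at the top, 3.03-fold above that labelled control, while at 24 h estradiol was 1.90-fold lower, under the rule. Its other 2 probe sets were under the floor on all arrays, and all 3 are _s_at probe sets. With the mean of its probe sets the 6 h difference was 0.48 on the log2 scale, against 1.60, and under the rule. Kcnh2 (117018) read 1313 and 506 at 6 h, and 911 and 1161 at 24 h, estradiol before control. The array labelled control at 6 h stood apart on the low side, 2.60-fold under that labelled estradiol. The dimmer Kcnh2 probe set did not show this: it read 827 and 839 at 6 h, a log2 difference of -0.02 against 1.38 for the brighter.

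Kcna1 (24520) read 48.6 with the estradiol label and 411 with the control label at 6 h, 94.0 with estradiol and 40.5 in its control at 24 h. It was at least 4.01-fold lower with the estradiol label at 6 h. A second Kcna1 probe set had the same highest array, 122 with the control label at 6 h, against values under the floor elsewhere, 42.8, 5.30 and 4.43 on the others. Kcnh8 (246325) read 152 and 308 at 6 h, and 144 and 256 at 24 h, estradiol before control. That is 2.02-fold lower at 6 h, barely past the rule, and 1.78-fold lower at 24 h, under it. Without _s_at and _x_at probe sets, the Kcna1 difference at 6 h was -0.26 on the log2 scale and Kcnh8 was at the floor. On the control array at 24 h and that labelled estradiol at 6 h, Kcna1 was under the floor on both and Kcnf1 above it only on the latter.

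The 2 controls differ in time and scan day. Kcnh2 was higher in the control at 24 h, by 2.30-fold, and Kcna1 and Kcnf1 lower, by at least 4.07-fold and at least 3.82-fold. The shares were 3.33% higher and 6.67% lower, against 7.63% and 9.62% of all genes. These 3 genes also differed at 6 h, through the same array labelled control at 6 h. The log2 differences of the 30 genes between the 2 controls had a median of -0.05 and an SD of 0.65 across genes, against an SD of 0.82 over all genes. The SD was 0.47 between the control at 24 h and the array labelled estradiol at 6 h, the smallest of the 6 pairs of arrays, and 0.74 between the 2 arrays at 6 h, the largest. Over all genes the first of these pairs was also the smallest, at 0.65. The pair at 6 h had 0.69 over all genes, where the 2 controls had the largest SD.

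Set side by side, the estradiol comparisons at 24 h and 6 h share no array. Of 25 potassium channel genes with a signal above the floor in both, 14 were lower with the estradiol label at both times, 1 was higher at both, and 10 changed sign. Lower at both were 56.0% of the members and 26.2% of all 3226 genes. By the genes' own signals, where Kcna1 was higher at 24 h, 13 of 25 were lower at both, 52.0% against 25.6%. These shares rest on the 6 h labels that the estrogen-induced genes oppose. With those labels turned, 5 of 25 were lower at both times and 5 higher, 20% and 20% against 33.5% and 23.5% of all genes, so the share lower at both went from above that of all genes to below it. As labelled, among genes with a mean signal under 300 the shares were 12 of 17, 70.6%, and 34.5% of 1190. The members' share was 44.0% with a common median or quantile normalization, against 21.6% and 25.4% of all genes. It was 30.0% of 10 genes with a floor at the 60th percentile, against 22.0%. By at least 0.5 on the log2 scale at both times, 6 were lower, namely Kcna5, Kcnh4, Kcnh5, Kcnh8, Kcnj11 and Kcnma1, and 1 higher, Kcne1. That is 24.0% and 4% of the members, against 3.94% and 2.91% of all genes. Kcna5, Kcnh5 and Kcnma1 were above the floor only on the arrays labelled control, so being counted fixed their direction. Kcnj11 was at the floor with estradiol at 24 h, and Kcne1 was above it only with the estradiol label. The share among dim genes was not taken for this size. With the 6 h labels turned, 1 was lower by at least 0.5 at both times, Kcnd3, and 2 higher, Kcnf1 and Kcns3, which is 4% and 8% against 9.83% and 5.55%.

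**Figure D3:**
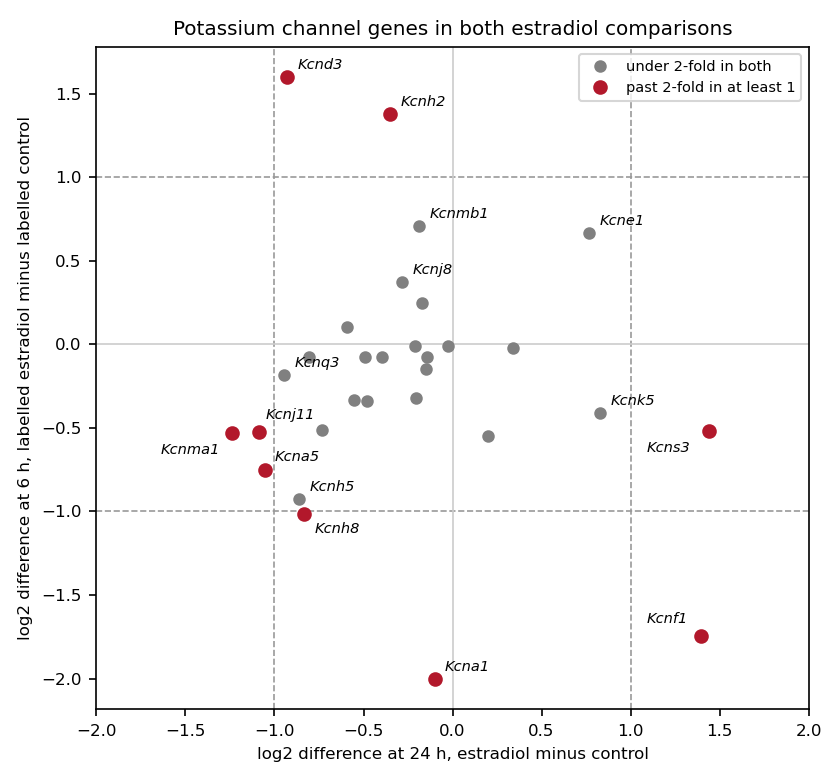
Log2 difference at 6 h (labelled estradiol minus labelled control) against that at 24 h (estradiol minus control) for the 30 potassium channel genes above the floor on at least 1 array, 1 point per gene, with dashed lines at 2-fold. Most points lie left of 0, 14 of the 25 genes with a signal in both comparisons are lower at both times as labelled (5 with the 6 h labels turned), and Kcnf1 sits at 1.39 and -1.74.

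Values of other cell types stood beside these. Of 14 nerve and glia markers on the array, 9 were above the floor on at least 1 array. Of the 8 with a signal in both comparisons, 6 were lower with the estradiol label at both times, 75% against 26.2% of all genes. With the 6 h labels turned it was 1 of 8, 12.5% against 33.5%. The summed signal of these markers was 4372 with estradiol and 7418 in its control at 24 h, 5753 and 7104 at 6 h in the same order. Most of that was Pmp22, and without it the sums were 1027 and 1757 at 24 h and 1121 and 1883 at 6 h. Their median log2 difference was -0.57 at 24 h and -0.37 at 6 h, with 0 of 9 past the rule at 24 h and 1 lower at 6 h. Among the defining markers, Nefm, Syt1, Dbh, S100b and Mbp were at the floor on all arrays. Smooth muscle markers summed to 95653 and 87878 at 24 h and to 61611 and 80776 at 6 h, with 0 of 7 past the rule. For endothelium the median was -0.79 at 24 h and 0.20 at 6 h, 2 of 5 markers were lower each time, and they summed to between 956 and 1956. Epithelial markers had 5 of 7 higher at 24 h and 3 lower at 6 h. They summed to 3727 with estradiol and 1269 in its control at 24 h, and to 857 and 1918 at 6 h in the same order. The 2 arrays with the highest sums were also the 2 with the highest signals of Kcns3 and Kcnf1. Krt8, Krt18 and Krt19 were highest on these arrays too, and Epcam, Cldn3, Ocln and Muc1 were not. Leukocyte markers, 7 of 7 above the floor, had medians of -0.86 and -0.55, with 2 higher and 3 lower at 24 h and 1 lower at 6 h, and summed to between 5911 and 8356. The share lower at both times as labelled was not high for nerve and glia alone. It was 3 of 7 for leukocytes, 2 of 5 for endothelium and 2 of 5 for skeletal and cardiac muscle markers. For smooth muscle it was 2 of 7 and for epithelium 1 of 6, against 34.5% of all genes of mean signal under 300. Among all 3619 genes above a floor, 8.68% were higher and 8.04% lower at 24 h, and 6.47% and 5.08% at 6 h. The part of these cell types in the potassium channel values was not tested.

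Among calcium-activated channels, the auxiliary gene of the BK channel was above the floor on all 4 arrays. The pore gene Kcnma1 was above it on 2 arrays, by 1 of its 4 probe sets. Their signals come from different probes, so they do not rank the transcripts. Kcnmb1, the beta1 subunit of smooth muscle that raises the channel's calcium sensitivity, read 1314 with estradiol and 1497 in its control at 24 h, 1951 with the estradiol label and 1197 with the control label at 6 h. Its second probe set read 497, 662, 771 and 376 in that order. Both probe sets ranked the 4 arrays alike, with the array labelled estradiol at 6 h highest and that labelled control at 6 h lowest. At 24 h the differences were -0.19 and -0.41, and at 6 h 0.71 and 1.03, so only the dimmer passed 2-fold. Kcnn3, the small-conductance SK3 channel, was above the floor only on the array labelled estradiol at 6 h, at 129 against 21.7 to 64.1 elsewhere, which gives at least 1.19-fold. Kcnn1, of the same family, read between 125 and 161 and was under 2-fold throughout.

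Inward rectifiers were the largest subfamily, with 15 genes, and the one with most at the floor, 10. Kcnj8, the Kir6.1 pore of the vascular and smooth muscle ATP-sensitive channel, read 484 with estradiol and 589 in its control at 24 h, 593 with the estradiol label and 458 with the control label at 6 h. The highest lay 1.30-fold over the lowest, in contrast to the crossing of the floor by Kcnj11. Abcc9, the sulphonylurea receptor that joins these pores, read 392 and 616 at 24 h and 897 and 875 at 6 h, 1.57-fold lower with estradiol at 24 h, and Abcc8, the receptor of the pancreatic channel, was at the floor on all arrays. Kcnj1, the renal secretory channel, was 1.51-fold lower at 24 h, and its second probe set above the floor had -0.68 against -0.60. Kcnj4 and Kcnj10 were above the floor on 2 arrays and 1 array, none past the rule. At the floor on all arrays were Kcnj2, the classical strong rectifier, the G protein-gated Kcnj3, Kcnj5, Kcnj6 and Kcnj9, and Kcnj12, Kcnj13, Kcnj14, Kcnj15 and Kcnj16.

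Of the 12 voltage-gated pore genes of Kcna to Kcnd, 5 were above the floor somewhere. Besides Kcna1, Kcna5 and Kcnd3, these were Kcnc4, at 127 to 160.2, and Kcnd2, which was above the floor on both arrays at 24 h, at 96.9 and 107, and under it on both at 6 h, at 38.6 and 25.6. Kcna2, Kcna3, Kcna4, Kcna6, Kcnb2, Kcnc1 and Kcnc2 were at the floor on all arrays. The partners of these pores were few: Kcnab2, a beta subunit of Kv1 channels, read between 253 and 407, was lowest with estradiol at 24 h, and differed by -0.55 at 24 h and -0.33 at 6 h. Its second probe set also went down, by -0.45 and -0.04. Kcnab1 was above the floor only in the control at 24 h, at 157, a log2 difference of -0.81 at the floor of the estradiol array. Kcng1, another modifier of Kv2, read between 172 and 202 throughout, whereas the modifiers Kcns1 and Kcnv1 were at the floor on all arrays, as were Kcnab3 and the sodium-activated Kcnt1.

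Kcne1, the single-span partner of Kcnq1, read 172 on the estradiol array at 24 h and 171 on that labelled estradiol at 6 h, and 81.9 and 90.5 on the controls. Both arrays labelled estradiol were above the floor and both controls under it. The bounds, at least 1.70-fold and at least 1.58-fold higher, were under the rule. Its second probe set was at the floor throughout, and without _s_at and _x_at probe sets Kcne1 was at the floor in both comparisons. Kcnq1 itself, the slow delayed rectifier pore, read between 7.92 and 10.8 and was at the floor on all arrays. Kcnq3, of the M-current, read 156 and 301 at 24 h, 1.93-fold lower with estradiol and just under the rule, and 224 and 254 at 6 h. The second Kcnq3 probe set read between 7.10 and 21.5, under every floor. Without _s_at and _x_at probe sets Kcnq3 was at the floor on both arrays at 24 h.

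The Kcnh family had 6 of 8 genes above the floor, 5 of them on all arrays. Besides Kcnh2 and Kcnh8, Kcnh3 read 982 with estradiol and 1372 in its control at 24 h, and 1007 and 1276 at 6 h, which is 1.40-fold and 1.27-fold lower. Its second probe set opposed this at 24 h, with 186 against 63.1. Kcnh4 was 1.66-fold lower at 24 h and 1.42-fold lower at 6 h, and Kcnh5 at least 1.82-fold and at least 1.90-fold lower. Kcnh5 was above the floor on both arrays labelled control only, at 163 and 195. Kcnh7 read between 122 and 140.02, the narrowest range among the members above the floor on all 4 arrays. The family median was -0.61 at 24 h and -0.43 at 6 h. Kcnh1 and Kcnh6 were at the floor.

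Tandem-pore background channels had 3 genes on the array, none past the rule. Kcnk5, an acid-sensitive channel, read 531 and 299 at 24 h, 1.78-fold higher with estradiol, and 442 and 588 at 6 h, 1.33-fold lower with the estradiol label. The control at 24 h was the lowest of its 4 arrays, 1.97-fold under the control at 6 h. Kcnk1 read between 143 and 226. Kcnk3, which also senses acid, was above the floor only in the control at 24 h, at 118.

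**Figure D4:**
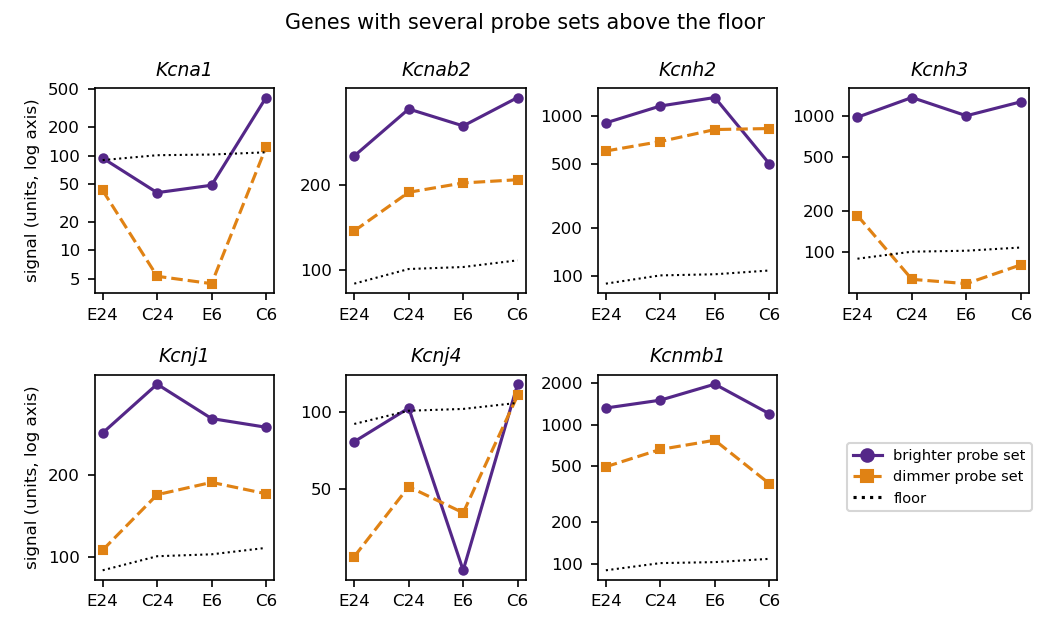
Signal in signal units (log axis) of the 7 genes with several probe sets above the floor, over the arrays with estradiol (E24) and control (C24) at 24 h and those labelled estradiol (E6) and control (C6) at 6 h; solid and dashed lines are the brighter and dimmer probe set and the dotted line is the floor. Both Kcnmb1 lines peak at E6, while the Kcnh2 lines part at C6, at 506 and 839.

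Of 22 genes with several probe sets, 7 had more than 1 above a floor. At 24 h the probe sets differed in sign for 1 of these, Kcnh3, and at 6 h for 1, Kcnh2. Between the controls they differed in sign for 3, Kcnh2, Kcnh3 and Kcnj1, and the dimmer Kcnh2 probe set gave -0.27. The dimmer Kcnh3 probe set was under the floor on both controls, so its sign there is only that of the unequal floors. Of the 9 genes past 2-fold in a comparison, only Kcna1 and Kcnh2 had a second probe set above the floor.

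Partner genes, whose products bind, regulate or resemble potassium channels, numbered 21 of 36 on the array, and 17 were above the floor. Of these 17, at 24 h 1 was higher and 2 lower, at 6 h 1 and 1. Among all 3619 genes above a floor, 8.68% were higher and 8.04% lower at 24 h, and 6.47% and 5.08% at 6 h. Sgk1, a kinase that raises channel numbers at the membrane, read 496 and 224 at 24 h and 251 and 797 at 6 h, 2.21-fold higher and 3.18-fold lower with the estradiol label. It was high on the same pair of arrays as Kcnf1. Cav1, the caveolin that holds BK channels in caveolae, read 1000.2 and 2286 at 24 h and 1125 and 788 at 6 h, 2.29-fold lower at 24 h. Cnga3, a cyclic nucleotide-gated channel, was at least 2.05-fold lower at 24 h, and Dlg1, a scaffold, at least 2.13-fold higher at 6 h. The median of the list was -0.45 at 24 h and 0.10 at 6 h.

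The test run on the 4 arrays was a fit of both times together. In limma's fit of treatment and time with Benjamini-Hochberg adjustment over 6157 probe sets, 0 of the 30 genes were called for treatment and 0 for time, as were 0% of all probe sets for each term. The smallest adjusted p among the members was 0.999 for treatment and 0.938 for time. At an unadjusted p under 0.05 there were also 0 members for either term, against 104 probe sets, 1.69%, for treatment and 220, 3.57%, for time. The lowest unadjusted limma p among the members was 0.0534, for Kcnh8 and treatment. The fit has 1 residual degree of freedom and takes the labels at 6 h as given, and a p that misses the threshold does not show that the genes were alike.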

How the data were processed

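Pooled RNA of 6 animals was measured on each of 4 rat genome arrays. The authors deposited 1 intensity per probe set, made with MAS5 per the submitters' processing notes; its version and settings are not given here by any source. The 2% trimmed mean of each deposited column was 500, so scaling to it again changed nothing. The deposited instrument records, which hold other values, were read for scan day, lot and wash log. Of 8799 probe sets 59 controls were left out, and 7006 of the rest had 1 symbol in the platform table. The table of 4736 genes used the probe set with the highest mean signal per gene. The fold rule and limma 3.58.1 (R 4.3.3, lmFit and eBayes, threshold 0.05) were tried on simulated arrays. Those had the same treatment effects at both times, so they do not show how either performs on these arrays. Named genes were those past 2-fold, the 10 of highest mean signal, a list fixed by name, 4 estrogen-induced genes and up to 6 partners. Members and lists were chosen with earlier results of these data known. Alternatives were other scalings, floors, folds and probe set rules, and a pseudocount of 100. The number of arrays limits the precision.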

Additional observations from a re-analysis of the deposited data

Results flagged for a closer look

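Kcnf1 was past 2-fold in opposite directions at the 2 times, with a log2 difference of 1.39 at 24 h and -1.74 at 6 h, arrays as labelled. The difference between the times was not tested. The estrogen-induced genes named in the report oppose the labels at 6 h.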

How the results depend on the processing

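No paired analysis was possible because each group has 1 array. At the main setting the counts of potassium channel genes were 2 higher and 3 lower at 24 h, 2 and 3 at 6 h, and 1 and 2 between the controls, and 30 were above the floor. A floor at the 20th percentile gave 5 and 6, 4 and 9, and 4 and 6, with 47 above it. A floor at the 60th percentile left 14 above it and gave 0 and 0, 2 and 0, and 1 and 0. The 1.5-fold rule gave 4 and 10 at 24 h, 4 and 5 at 6 h, and 1 and 3 between the controls. The 3-fold rule gave 0 and 0, 1 and 2, and 0 and 2. A pseudocount of 100 gave 1 and 1 at 24 h. Averaging all probe sets per gene gave 2 and 1 at 24 h, 0 and 2 at 6 h, and 0 and 2 between the controls. Without probe sets ending in _x_at or _s_at the counts were 1 and 2, 1 and 1, and 1 and 1. Lower genes at 24 h numbered 1 with a common median and 1 with quantile normalization. Values as deposited gave the same counts. The share of all genes called is given for the main setting only, so the counts at other settings do not show a lean of the members. Settings chosen after the data were seen put the other control in place: 1 and 4 at 24 h with the control at 6 h, and 1 and 1 at 6 h with the control at 24 h. Counts with the 6 h labels turned, and those by the genes' own signals, were also added after the data were seen. limma called 0 genes for either term under every setting run. Of 13 called differences of single genes, 3 kept 2-fold with the floor at the 60th percentile and 7 with the mean of probe sets, and 0 changed sign under any planned setting. With the floor at the 20th percentile, Kcna1 at 24 h became 1.21 and Kcnd2 between the controls 1.55, from -0.10 and -0.01. Signals near the floor limit what can be read.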
